A study of Mus musculus with 20 samples.

Results

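The 500 mycPet-1 peaks with the highest scores in the study's peak list were described, out of 4934 peaks in all. Pet-1, the product of the gene Fev, carried a Myc tag, and the peaks mark where anti-Myc antibody enriched chromatin from embryonic mouse hindbrain. Peaks were ranked by the score that the authors deposited with each peak, and ties were ordered by chromosome and start. Scores, and everything measured from the same enrichment such as width, are therefore given as description with no test. Scores ran from 3133.01 at the first peak to 247.71 at the 500th, with a median of 424, and the whole list went down to 50. The last 5 peaks inside the threshold had Noa1 (248.78), Rab24 (248.39), Runx3 (248.16), Pisd (247.85) and H2ac18 (247.71) as their nearest coding genes. The first 5 outside it had Ankrd13c (247.27), Ptpn4 (247.07), Mdga2 (246.96), 2700081O15Rik (246.39) and Msx1 (246.00), so no gap in score sets the 500 apart.

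The study paired this ChIP-seq experiment with RNA-seq of serotonin (5-HT) neurons from C57BL/6 mice. Chromatin came from YFP-positive tissue dissected from the mid-hindbrain boundary down to rhombomere 4. The protocol describes the embryos as null for Pet-1 (Pet-1-/-) and carrying the transgenes ePet-mycPet-1 and ePet-EYFP, at E12.5 to E15.5. The sample labels instead give a wild type genotype and stages of E12.5-E14.5. By the protocol the endogenous Pet-1 gene is thus disrupted, and both the tagged protein and the YFP reporter are driven by the ePet enhancer, so the tagged protein is a transgene product. One ChIP sample and one input sample were labelled, with no replicate, so no peak has a replicate check. The RNA libraries came from sorted EYFP-positive neurons. Wild-type groups of 3 libraries were E11.5, E15.5 and postnatal day 1 to 3, amplified with the Clontech kit. Wild-type and Pet-1-/- groups at E15.5, 3 libraries each, were made with the Clontech kit and again with the NuGEN kit.

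Pet-1 belongs to the ETS family, whose DNA-binding domain recognises sequences built around a GGAA core. Pet-1 is a terminal selector of serotonin neurons: with partners such as Gata2, Gata3 and Lmx1b it switches on the enzymes and transporters that make, pack and take up serotonin. The promoters of widely expressed genes often lie in CpG islands and carry recurring elements, among them ETS sites and a palindrome with CGCG at its centre, TCTCGCGAGA.

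The sequence upstream of a gene start was available for most of the promoters beneath these peaks, and a palindrome in it was most frequent under the strongest peaks. The sequences shown here are the 150 bases upstream of the start, 5′ to 3′ on the gene's strand, from RefSeq on GRCm38.p6, the assembly that mm10 names. The first set holds the 5 highest-ranked peaks with TCTCGCGAGA in these bases, which is in capitals. Mdh2 encodes mitochondrial malate dehydrogenase, Psmd5 a proteasome assembly chaperone, Hspa4 a heat shock protein of the Hsp110 kind, and Micu2 a regulator of mitochondrial calcium uptake.
Mdh2 (chr5:135778499-135778648, plus strand): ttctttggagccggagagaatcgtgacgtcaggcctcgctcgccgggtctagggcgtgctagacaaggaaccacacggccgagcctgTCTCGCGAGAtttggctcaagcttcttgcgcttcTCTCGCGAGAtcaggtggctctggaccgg
Qrich1 (chr9:108516937-108517086, plus strand): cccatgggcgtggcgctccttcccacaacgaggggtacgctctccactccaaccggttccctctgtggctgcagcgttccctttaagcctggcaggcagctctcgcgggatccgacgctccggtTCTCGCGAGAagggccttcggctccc
Psmd5 (chr2:34870963-34871112, minus strand): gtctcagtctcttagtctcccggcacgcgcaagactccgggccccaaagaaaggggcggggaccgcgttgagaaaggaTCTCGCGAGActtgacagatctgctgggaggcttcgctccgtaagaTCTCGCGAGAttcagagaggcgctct
Hspa4 (chr11:53300480-53300629, minus strand): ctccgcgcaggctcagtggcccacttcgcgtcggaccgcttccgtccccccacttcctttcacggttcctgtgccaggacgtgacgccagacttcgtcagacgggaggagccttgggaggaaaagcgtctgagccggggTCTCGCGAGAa
Micu2 (chr14:57999263-57999412, minus strand): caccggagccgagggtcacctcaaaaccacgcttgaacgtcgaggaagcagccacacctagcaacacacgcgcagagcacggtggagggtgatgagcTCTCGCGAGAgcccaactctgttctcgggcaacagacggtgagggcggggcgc

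The next set holds the 3 highest-ranked peaks whose upstream bases carry the ETS word CCGGAAGT, in capitals, and not TCTCGCGAGA. The shorter word TCTCGCGA, a part of that palindrome, does occur in the bases of Map10 and Cct8, where it is not in capitals. Cct8 encodes a subunit of the TRiC chaperonin, Tbck a kinase-like protein and Map10 a microtubule-associated protein.
Tbck (chr3:132683994-132684143, plus strand): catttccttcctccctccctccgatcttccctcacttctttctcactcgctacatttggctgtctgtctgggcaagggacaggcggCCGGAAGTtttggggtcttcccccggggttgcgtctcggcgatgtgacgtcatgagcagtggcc
Map10 (chr8:125669668-125669817, plus strand): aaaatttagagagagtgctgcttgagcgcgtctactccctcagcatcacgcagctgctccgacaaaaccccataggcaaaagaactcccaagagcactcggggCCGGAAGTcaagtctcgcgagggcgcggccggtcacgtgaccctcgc
Cct8 (chr16:87495870-87496019, minus strand): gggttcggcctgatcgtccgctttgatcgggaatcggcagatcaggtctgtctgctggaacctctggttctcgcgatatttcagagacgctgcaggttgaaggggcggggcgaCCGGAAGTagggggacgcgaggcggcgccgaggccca

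For contrast, the same bases are shown for 2 homeobox genes on a list of serotonin neuron factors, Tlx3 and Hmx3. Neither word occurs in them, so there are no capitals.
Tlx3 (chr11:33203589-33203738, minus strand): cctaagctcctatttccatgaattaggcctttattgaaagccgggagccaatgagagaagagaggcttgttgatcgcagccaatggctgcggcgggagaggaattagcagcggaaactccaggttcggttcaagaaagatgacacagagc
Hmx3 (chr7:131542813-131542962, plus strand): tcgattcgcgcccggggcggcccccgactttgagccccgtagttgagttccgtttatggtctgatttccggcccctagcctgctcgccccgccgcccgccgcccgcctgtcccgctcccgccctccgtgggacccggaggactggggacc

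Both words were searched on both strands in windows of 300 bases, from 250 before to 50 after each coding gene's start. Among all 8-base words, TCGCGAGA differed most in share between peaks of ranks 1 to 250 (55.7% of 203 peaks) and peaks below rank 500 (2.51% of 2267 peaks). Joined with its reverse complement over their overlap it gives TCTCGCGAGA, which is its own reverse complement, was counted once per site and does not contain GGAA. The palindrome was thus chosen from these same peaks, and its shares are a description. Of the 465 windows whose start lay under a peak of the 500, 113 (24.3%) held TCTCGCGAGA, against 143 of all 21263 windows (0.673%). The share was 51.8% (57 of 110 windows, exact 95% interval 42.1 to 61.4) under ranks 1 to 100 and 25.1% (44 of 175, 18.9 to 32.2) under the next 150 peaks. It was 6.67% (12 of 180, 3.49 to 11.4) under the last 250 of the 500 and 2.47% (10 of 405) under the 500 peaks ranked after them. Windows with no peak over the start held it in 0.0780% of cases (14 of 17942). Read from the word to the peaks, 79.0% of the windows with TCTCGCGAGA lay under a peak of the 500, and 90.2% under any peak. Counted once per peak, 90 of 348 peaks over a start (25.9%) had a window with it, and 7 of those held it at 2 or more places.

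The ETS word showed no such fall with rank. CCGGAAGT stood in 10.9% of windows (12 of 110) under ranks 1 to 100, 9.71% (17 of 175) under the next 150 peaks and 17.8% (32 of 180) under the last 250. It stood in 18.5% under the 500 peaks ranked after them, in 22.9% under the 1000 after those, in 16.2% under all peaks of still lower rank, in 2.85% of windows with no peak over the start and in 5.15% of all windows. The bare core GGAA occurred in 96.1% of windows under the 500 peaks and in 95.7% of all windows, so it does not separate them. Sites of TCTCGCGAGA sat at a median of 37.5 bases upstream of the start, and 84 of 98 lay upstream. Most of each window lay upstream of the start by construction, so the count upstream cannot show a preference for that side. A site was within 100 bases of the peak's centre in 53 of 90 peaks, although its median distance from the centre (81.3 bases) was close to that of the start itself (89.5 bases). Base composition moved much less with rank. The median GC content was 63.3% under the 500 peaks and 63.0% under lower peaks, against 54.7% where no peak covered the start.

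**Figure D1:**
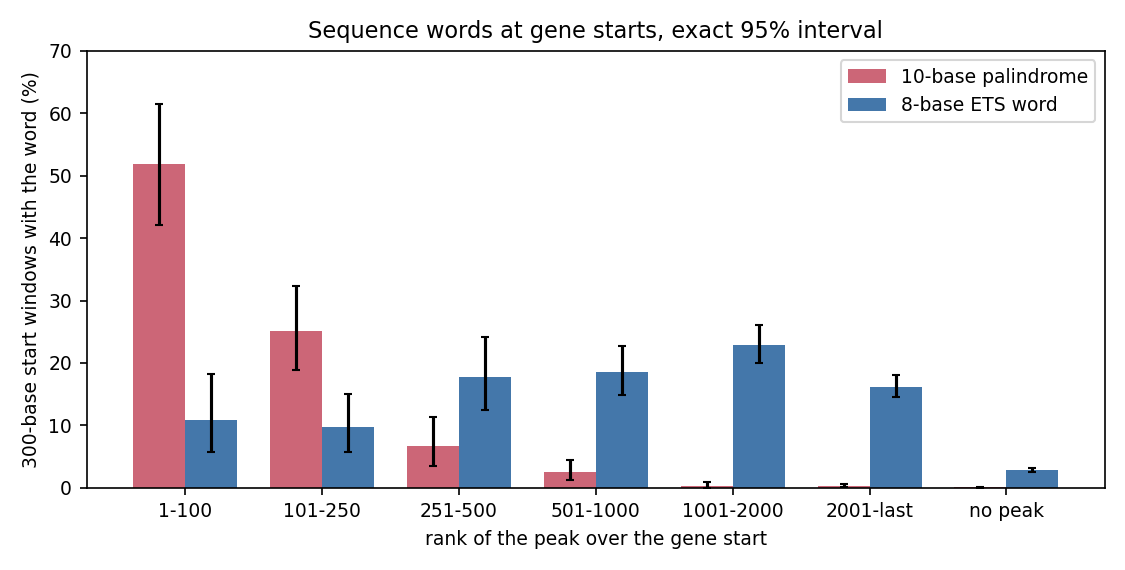
Share (%) of 300-base windows at coding gene starts that hold the 10-base palindrome (red) or the 8-base ETS word (blue), by rank of the peak over the start, with exact 95% intervals. The palindrome's share falls from 51.8% under ranks 1 to 100 to 2.47% under the 500 peaks ranked after the members, while the ETS word's share is 10.9% and 18.5% in those same groups.

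Most of the 500 peaks sat on gene starts. The centre of 346 (69.2%, exact 95% interval 64.9 to 73.2) lay within 1 kb of a known start of a coding gene, and the median centre was 13.5 bases downstream of it. The share was 63.2% for the 500 peaks ranked after them and 61.6% for all peaks. Within the 500 the share was uneven, at 80.0% for ranks 1 to 100, 80.7% for the next 150 and 58.0% for the last 250. Another 52 peaks (10.4%) lay within 1 kb of an end of a coding gene whose strand the reference tables do not give, and 102 lay near neither. Counting both ends of such genes brought the share to 79.6%. Only 4 peaks lay at a known 3′ end without a start. Of the 346 peaks at a start, 66 (19.1%) had starts on both strands within that distance, the arrangement of a divergent promoter, against 13.1% of lower-ranked peaks.

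The peaks were 732 to 11975 bases wide, with a median of 1295 bases, against 1185 bases for the 500 peaks ranked after them and 885 bases for all peaks. Width depended on place. The median was 1226 bases at a start and 1832 bases for the 102 peaks near no start or end, of which 40 were over 2 kb wide. Of those 102 peaks, 34 lay within 5 kb of a developmental transcription factor gene. This class was defined by gene symbol after the peaks had been looked at, as 232 homeobox, Gata, Sox, Fox and like genes. In all, 46 of the 500 peaks (9.20%) lay near such a gene, against 8.40% of the 500 peaks ranked after them and 6.22% of all lower peaks, and they had a median width of 2018 bases against 1252 bases for the other peaks. None of ranks 1 to 100 did, 9 of the next 150 did and 37 of the last 250 did. The stronger and weaker ends of the 500 thus differed in how many lay near such genes.

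**Figure D2:**
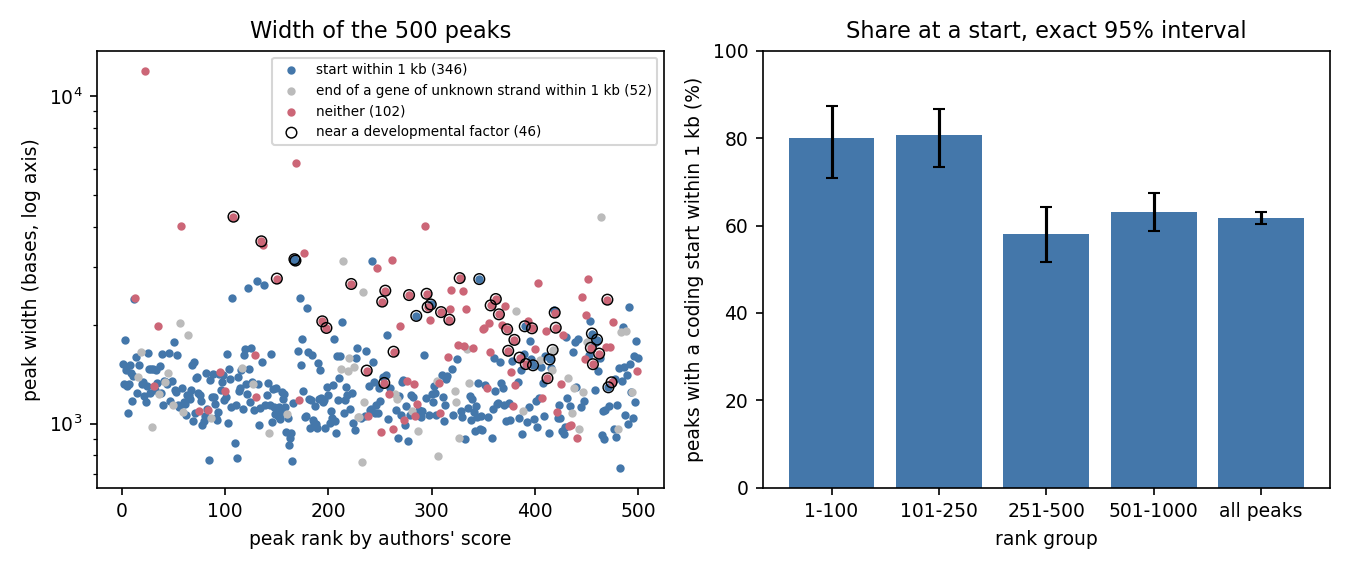
Left, width in bases (log axis) against rank for the 500 peaks, coloured by place, with a ring on the 46 peaks near a developmental factor gene. Right, share (%) of peaks with a coding start within 1 kb, by rank group, with exact 95% intervals. Ringed peaks are absent from ranks 1 to 100, and the share at a start is 80.0% there and 58.0% in the last 250.

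The widest peak, rank 22 at chr13:120024731-120036705, spanned 11975 bases over the predicted genes Gm21188 and Gm36079. The next, rank 169 at chr17:39842841-39849103, spanned 6263 bases over the ribosomal RNA gene Rn18s-rs5 and AY036118. Ribosomal RNA genes occur in many copies, and the sources used here do not state how reads from repeated sequence were placed. Skor1, a corepressor gene, lay under the third widest (4286 bases, rank 108), followed by Gm40363 and Gm40364 (4268 bases, rank 464) and Mn1 (4012 bases, rank 57). The Tlx3 peak, rank 167 at chr11:33201880-33205057, was 3178 bases wide.

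Neighbouring peaks of the 500 on a chromosome had a median of 2.03 Mb between centres over 480 gaps, against 0.153 Mb for the whole list. A list of fewer peaks has wider gaps by construction, and no list of equal number was compared. Only 8 gaps were under 5 kb. The closest pair, 1781 bases apart, lay at En2 (ranks 254 and 420), which encodes a homeobox factor of the midbrain-hindbrain region. Pairs followed at Ptma (2315 bases), which encodes prothymosin alpha, and at the homeobox gene Nkx1-1 (2705 bases), then at Gm40363 (3261 bases) and between Cenpt and Thap11 (3424 bases). Of the 8 pairs under 5 kb, those at En2, Nkx1-1, Tlx3, Foxa1 and Otx1 were at homeobox or forkhead genes. Chromosomes 2, 11 and 5 held the most peaks, with 46, 44 and 42, and chromosome Y held none. Per 100 coding genes, chromosome 3 had the highest number (3.66) and X the lowest of the others (0.311, from 3 peaks).

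The peak of rank 1 (chr10:62449086-62450610, score 3133.01) covered the start of Supv3l1, a mitochondrial RNA helicase. Ranks 2 to 6 shared a score of exactly 3100 and lay over Cdk12, a kinase of RNA polymerase II, Rbm39, a splicing regulator, Denr, a translation re-initiation factor, Mdh2 and Qrich1. Among the nearest genes of ranks 7 to 15 were Psmd5, Ercc6l2, Hspa4, Eif4a3, Micu2, Wdr77, Mapk14 and Rad17. Eif4a3 is a core protein of the exon junction complex, Mapk14 the p38-alpha kinase and Rad17 a DNA damage checkpoint loader. Of the 14 nearest genes of the first 15 peaks that have a known start, 8 held TCTCGCGAGA in the window and none held CCGGAAGT. Styxl1, whose starts also lay under the peak of rank 5, held both words. The peak of rank 12 covered the starts of both Wdr77 and Atp5pb, a subunit of ATP synthase.

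A coding gene was called near when a known start lay within 5 kb of a peak's centre. By that rule 485 genes were near 398 of the 500 peaks, or 2.77% of the 17492 coding genes with a start. Ribosomal protein genes were the list with most members near, with 17 of 64 (26.6%), and 6 of these 17 had TCTCGCGAGA in the window. The list of serotonin neuron transcription factors had the highest share, with 8 of 16 (50%). Near genes were not limited to that list among developmental factors. Of the 232 genes in the developmental factor class, with or without a known start, 32 were near. Respiratory chain and ATP synthase genes had 9 of 76 (11.8%), splicing factors and hnRNPs with 6 of 58 (10.3%) and translation factors with 5 of 54 (9.26%). Proteasome subunits had 2 of 32, mitochondrial ribosomal proteins 3 of 69, ion channels 1 of 30 (Kcnc1) and cell cycle genes 1 of 20 (Mcm2). ETS family factors (21 genes), synaptic vesicle genes (24), transmitter receptors (34), axon guidance genes (28) and neuropeptides (14) had none. Among markers of other cells, Olig2 (progenitors) and Slc32a1 (inhibitory neurons) were near, and no gene of the astrocyte, oligodendrocyte, microglial or vascular lists was. One peak, rank 163, covered the divergent starts of both Rps28 and Ndufa7, which are at positions 33824562 and 33824572 of chromosome 17.

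Serotonin genes were counted by role. None of 16 genes of serotonin synthesis, cofactor supply, transport and breakdown had any of the 500 peaks over its span or within 5 kb of its start. By that rule 5 had a peak of lower rank: Gchfr, Slc18a1 and Slc29a4 at an end or start, and Ddc and Slc22a3 inside the gene, 67.7 and 33.0 kb from the start. Tph2, the rate-limiting enzyme in these neurons, had no peak nearer than 200 kb, and the nearest to Slc6a4, the serotonin transporter, was 52.9 kb from its start. None of 14 serotonin receptor genes had one, and only Htr1b had a peak of any rank (4162). Fev itself had a peak of rank 4040 with a score of 59.9. By contrast, on the list of serotonin neuron factors, 9 of 20 genes had a peak among the 500 and 19 had one of any rank. In order of rank the 9 were En1 (150), Tlx3 (167), En2 (254), Hmx2 (296), Hmx3 (365), Lmx1b (385), Gata2 (390), Sox1 (391) and Foxa1 (412). Being on the list does not mean expression in these neurons. Tlx3 had no measured expression in the sorted libraries, and En2 stood at 0.932 to 6.40 FPKM. En1, Lmx1b and Gata2 encode factors that serotonin neurons need, and Foxa1 a factor of ventral progenitors. Most of these peaks were off the start: the centre was 2182 bases downstream of it at En1, 1837 at Lmx1b and 603 at Gata2, within 1 kb only for the last of these.

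Levels of the near genes were then read in the sorted libraries, in FPKM (fragments scaled to transcript length and library depth). Of the 485 genes, 466 were matched in the stage table, and 406 of these (87.1%) reached 1 FPKM in at least 3 of 9 libraries, against 56.0% of all coding genes with a start. Their median level was 9.75 ± 1.41 FPKM at E11.5, 9.15 ± 0.736 at E15.5 and 7.16 ± 0.452 postnatally (mean of the library medians ± SD, n = 3 libraries). For all coding genes with a start it was 0.716, 0.979 and 1.31 FPKM. Genes with TCTCGCGAGA under a peak had medians of 6.57, 7.71 and 5.52 FPKM (means of the library medians), and those under a peak without it 12.49, 12.51 and 10.02 FPKM. The 32 near genes of the developmental factor class were different: 15 of the 31 in the table reached the threshold, and the median was 0.204, 0.418 and 0.421 FPKM. High-ranked peaks were not limited to highly expressed genes, since Mdh2 stood at 1189, 1300 and 1026 FPKM in the E11.5 libraries while Ercc6l2, at rank 8, stood at 0.394 to 1.68 FPKM in all 9. Tlx3 was listed at 0 in all 9 libraries.

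The sorted libraries carried the serotonin markers. Fev averaged 266 FPKM at E11.5, 35.2 at E15.5 and 72.3 postnatally, Tph2 188, 64.1 and 91.5, and Slc6a4 98.2, 25.9 and 137 (n = 3 libraries each). Fev, Tph2 and Slc6a4 were thus lowest at E15.5, as were Slc18a2, Ddc and En1. The markers Gata2, Gata3, Lmx1b and Maob were instead lowest postnatally, averaging 13.2, 72.9, 3.45 and 7.52 FPKM there. In the authors' deposited table for the Clontech kit, Fev was 31.1 FPKM in wild type and 0.422 in Pet-1-/-, and in that for NuGEN 34.9 and 0.308. The summed level of 12 neural progenitor markers was 314 to 544 FPKM at E11.5, 966 to 1808 at E15.5 and 351 to 987 postnatally. The summed level of 11 microglial and blood markers was 7.87 to 16.5 FPKM at E11.5, 25.7 to 113 at E15.5 and 126 to 1073 postnatally, and that of 9 astrocyte markers 1.62 to 6.47, 50.9 to 147 and 120 to 257. The part of all these markers in the stage differences was not tested. In bulk libraries fewer cells of a type and less RNA per cell cannot be told apart. The E15.5 libraries of the stage table are close to the wild type of the Clontech table (median ratio 1.01 over 6382 genes), so the stage comparisons and that knockout comparison share samples. Nothing in the labels says whether the 3 libraries of a group came from separate litters, so p-values measure only the spread between these libraries, which may be technical.

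Loss of Pet-1 at E15.5 was next compared with the 500 peaks, using the q-values of the authors' deposited tables, a threshold of 0.05, at least 1.5-fold change and 1 FPKM in one group. In the authors' deposited table for the Clontech kit, 3 of 403 near genes tested were lower in Pet-1-/- (0.744%), where the background was 1.85% of 10939 genes, and 1 was higher (0.248%), where the background was 0.969%. In the authors' deposited table for the NuGEN kit, 19 of 407 were lower (4.67%), against a background of 4.56% of 11019 genes, and 37 were higher (9.09%), against 8.19%. These shares were at or below the background in the Clontech table and near it in the NuGEN table. Of 397 near genes tested with both kits, none was called in both, while 97 of the 10409 genes tested with both kits were called in the same direction in both. The median log2 fold change of near genes was -0.06 in the Clontech table and 0.10 in the NuGEN table, and of all genes tested -0.02 and 0.09. Genes with TCTCGCGAGA under a peak gave 0 calls of 92 in the authors' deposited Clontech table, against 2.82% of all genes in either direction, and 11 of 94 (11.7%) in the NuGEN one, against 12.74%.

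Named members with a call were few in the Clontech table. In the authors' deposited Clontech table the homeobox gene En1 was 27.9 FPKM in wild type and 14.7 in Pet-1-/- (log2 -0.92, q = 0.00391). In the authors' deposited NuGEN table En1 was 23.5 and 17.4 (log2 -0.43, q = 0.251). Foxa1 was 6.17 and 2.96 FPKM in the authors' deposited Clontech table (log2 -1.06, q = 0.0446) and 3.22 and 2.73 in the NuGEN one (q = 0.651). The third gene lower with Clontech was Ccdc103 (6.94 and 2.16 FPKM) and the one higher was Acap3 (4.41 and 8.73 FPKM), as the authors' deposited table gives them. These 2 genes were named after their values were seen. Whether a gene's response differed between kits was not tested. Gata2 and Lmx1b, partners of Pet-1, were not called in either of the authors' deposited tables: Gata2 was 33.5 and 30.6 FPKM with Clontech and 32.6 and 32.6 with NuGEN, and Lmx1b 4.89 and 8.19 with Clontech and 2.54 and 2.15 with NuGEN. Among the 17 near ribosomal protein genes, 11 were higher with NuGEN and 0 with Clontech in the authors' deposited tables. Ribosomal protein genes with a known start that were not near a peak of the 500 gave 29 of 42 higher with NuGEN and 0 of 42 with Clontech, a similar share (69.0% against 64.7%). With NuGEN, 6 of 9 near respiratory chain genes were also higher, against 8.19% of all genes. Mcm2, 1 of 6 splicing genes and 1 of 5 translation genes were lower, against 4.56%. No gene of these 4 lists was called with Clontech. Members of these lists away from the peaks were not compared.

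**Figure D3:**
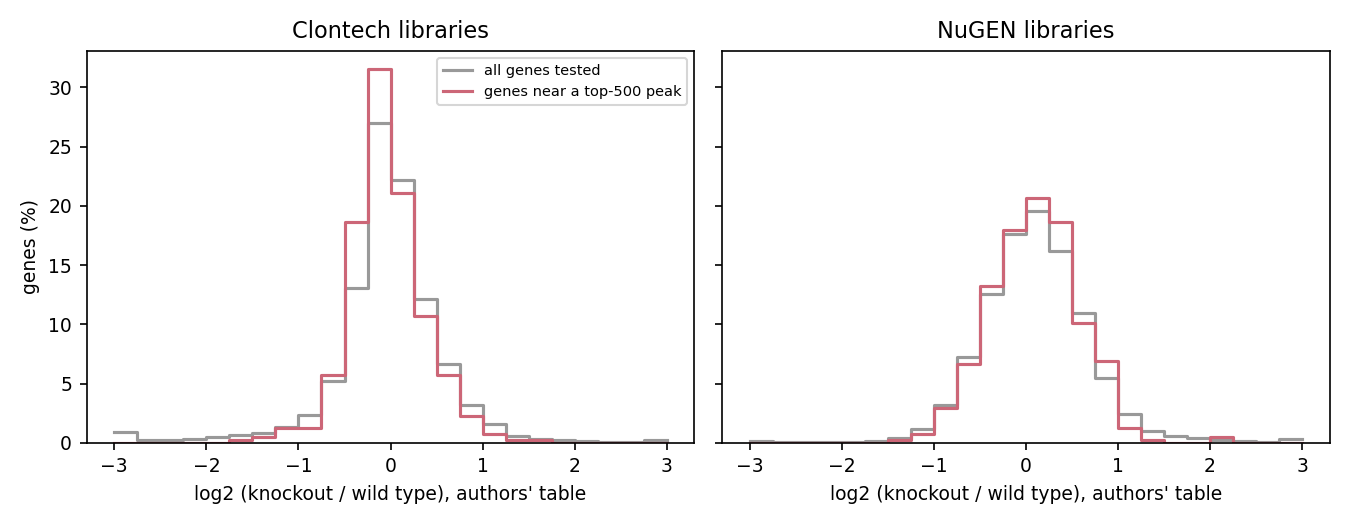
Distribution of the authors' log2 fold change of Pet-1-/- over wild type at E15.5, as % of genes per bin of 0.25, for genes near one of the 500 peaks (red) and all genes tested (grey), in the Clontech (left) and NuGEN (right) tables. The end bins hold all values beyond them. The curves overlie each other, with medians of -0.06 and -0.02 on the left and 0.10 and 0.09 on the right.

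Stage differences of the near genes were tested with limma on log2(FPKM + 1), over all 11741 genes that reached 1 FPKM in 3 libraries, and were called at an adjusted p under 0.05 and 1.5-fold. Fold changes on this scale understate those of low genes. From E11.5 to E15.5, 61 of 406 near genes rose (15.02%), against a background of 17.43%, and 51 fell (12.6%), against 11.48%. From E15.5 to the postnatal stage, 24 rose (5.91%), against 10.64%, and 53 fell (13.1%), against 9.55%. From E11.5 to the postnatal stage, 29 rose (7.14%), against 17.36%, and 54 fell (13.3%), against 10.02%. A smaller share of near genes than of all genes rose towards the postnatal stage, also under the 2 other scalings tried. Upper quartile scaling, which moved the median of all genes by -0.13 log2 from E11.5 to E15.5, turned that split to 41 risen and 64 fallen near genes, with 14.1% and 14.4% of all genes. From E11.5 to the postnatal stage the split was 22 and 69 under upper quartile scaling and 21 and 66 under median centring.

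Counts of calls moved when 1 library was left out. The libraries of a stage are called a, b and c, as names only. The near genes that rose between E11.5 and E15.5 numbered 39 without E11.5 library a. Leaving out E15.5 library a, b or c gave 30, 38 or 37. From E15.5 to the postnatal stage, 12 rose without E15.5 library c, and 13 or 11 without postnatal library a or b. In that comparison 26 or 31 fell without E15.5 library a or c, and 21 or 31 without postnatal library a or b. From E11.5 to the postnatal stage, 17 rose without any 1 of the 3 postnatal libraries, and 35 fell without postnatal library b. Leaving out a library changed the background as well: without postnatal library b, 2.73% of near genes and 5.96% of all genes rose from E15.5. The other counts are given without the share over all genes, so they do not tell near genes from all genes.

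Of the 9 genes on the list of serotonin neuron factors with a peak, 8 were near by start and 7 of these were tested. Between E11.5 and E15.5, 4 fell (Gata2, Lmx1b, Hmx2 and Hmx3), against 11.48% of all genes, and 1 rose (Foxa1), against 17.43%. These counts are description only, since the list is short and a gene could pass the filter through the libraries of a single stage. Gata2, a zinc-finger factor acting upstream of Pet-1, stood at 173, 143 and 89.2 FPKM at E11.5, at 44.5, 38.8 and 20.3 at E15.5 and at 15.6, 10.7 and 13.2 postnatally. The groups did not overlap at any step, and the log2 change from E11.5 to E15.5 was -1.96 (SE 0.352, limma adjusted p = 0.00175). Hmx2, a homeobox factor, stood at 82.7, 51.7 and 52.7 FPKM at E11.5 and at 13.9, 8.11 and 6.13 at E15.5 (log2 -2.64, SE 0.399, limma adjusted p = 0.000592). Its postnatal libraries, at 7.76, 9.76 and 3.61, overlapped those of E15.5. Lmx1b, a LIM homeobox factor, stood at 54.1, 19.4 and 21.2 FPKM at E11.5 and at 0.686, 7.18 and 2.50 postnatally (log2 -3.004, SE 0.543, limma adjusted p = 0.0014). Its fall from E11.5 to E15.5 was not called when genes of low level were kept in the fit. The Hmx3 call was lost without E11.5 library b and without E15.5 library b or c, with changes of -1.16, -1.48 and -1.26 log2. En1 stood at 113, 43.2 and 51.9 FPKM at E11.5, 42.2, 24.6 and 21.6 at E15.5 and 81.8, 59.5 and 26.3 postnatally, and no stage difference passed the test. Sox1 did not pass it either, at 15.8 to 16.7 FPKM at E11.5 and 5.64 to 11.3 postnatally. En2, whose start is not in the tables, stood at 0.932 to 6.40 FPKM over the 9 libraries.

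**Figure D4:**
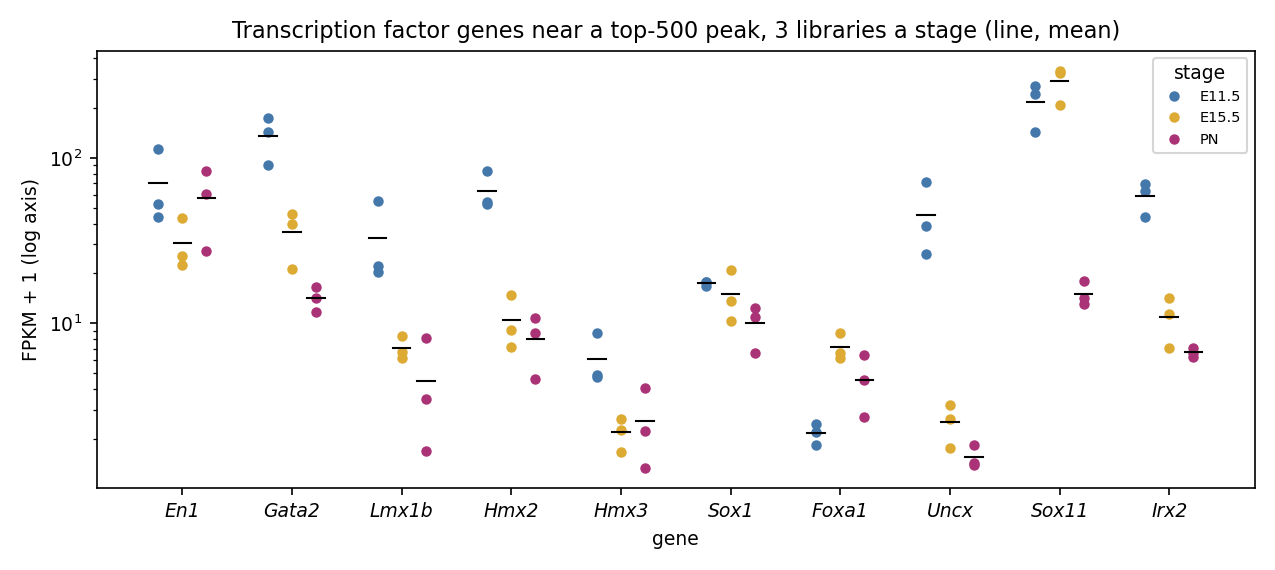
FPKM + 1 (log axis) of 10 transcription factor genes near one of the 500 peaks in each of 3 libraries at E11.5, E15.5 and the postnatal stage (PN), with a line at the mean. Gata2, Hmx2, Uncx and Irx2 are highest at E11.5 with no overlap with later stages, Foxa1 is lowest there, and Sox11 drops only after E15.5.

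Stage differences were also called for factors outside that list. Uncx, a homeobox gene with a peak of rank 194, stood at 70.2, 37.5 and 25.2 FPKM at E11.5, at 2.19, 1.63 and 0.752 at E15.5 and below 1 in each postnatal library (log2 from E11.5 to E15.5 -4.08, SE 0.419, limma adjusted p = 5.07e-05). Irx2, an Iroquois homeobox gene (rank 309), stood at 61.6, 42.6 and 68.4 FPKM at E11.5 and at 13.2, 6.03 and 10.4 at E15.5 (log2 -2.46, SE 0.336, limma adjusted p = 0.000317). Sox11, a factor of immature neurons (rank 414), kept its level to E15.5, at 336, 209 and 323 FPKM, and stood at 16.9, 12.1 and 13.2 postnatally (log2 from E15.5 -4.25, SE 0.306, limma adjusted p = 5.67e-06). In each of these steps the later libraries all lay below the earlier ones. Of the 15 developmental factor genes tested, 7 fell between E11.5 and E15.5 while 1 rose, against 11.48% and 17.43% of all genes. Between E11.5 and the postnatal stage 8 fell while 1 rose, against 10.02% and 17.36%. These counts are description only. The class was defined after the peaks were seen, and a gene could pass the filter through the libraries of a single stage. Developmental factors away from the peaks were not compared, so the falls cannot be tied to the peaks. Mcm2, a subunit of the replicative helicase, also fell, from 16.0, 25.9 and 19.5 FPKM at E11.5 to 4.85, 4.54 and 2.71 at E15.5. Its start was near the peak of rank 345 but not under it, and that peak covered the start of Tpra1. Apart from Uncx, the near genes with the largest falls between E11.5 and E15.5 were Bag6, a chaperone gene (log2 -3.14), the zinc-finger gene Zfp219 (-2.97) and H2-Ke6 (-2.69). After E15.5 the largest falls beside Sox11 were those of Ankrd49 (-2.62), the RNA-binding protein gene Hnrnpa2b1 (-2.12) and Eif4a2 (-2.05).

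Besides Foxa1, several members of other kinds rose. Eif4a2, an RNA helicase of translation initiation (rank 442), stood at 42.9, 56.1 and 98.6 FPKM at E11.5 and at 487, 372 and 626 at E15.5 (log2 2.95, SE 0.317, limma adjusted p = 6.37e-05), then at 104, 114 and 134 postnatally. Nptn, an adhesion protein of synapses (rank 413), stood at 9.77, 2.15 and 4.85 FPKM at E11.5 and at 49.8, 31.2 and 43.1 at E15.5 (log2 2.84, SE 0.433, limma adjusted p = 0.000638). Dnajb4, a chaperone gene (rank 25), rose over the same interval as well. Camk2d, a calcium-dependent kinase subunit (rank 174), stood at 0.594, 1.63 and 1.16 FPKM at E15.5 and at 11.52, 7.14 and 14.996 postnatally (log2 2.50, SE 0.361, limma adjusted p = 0.000893). Pcdh8, a protocadherin (rank 247), and Kcnc1, a Kv3 potassium channel (rank 316), rose over that interval, and both calls were lost without some single libraries, such as postnatal library b (1.45 and 1.36 log2). Csf2ra, a cytokine receptor subunit of myeloid cells, and H2-DMa, an antigen-presentation gene, were also among the 4 near genes with the largest rise to the postnatal stage. H2-DMa stood at 9.999, 8.60 and 6.43 FPKM at E15.5 and 34.2, 54.5 and 57.1 postnatally, and Csf2ra at 2.75, 11.1 and 2.97 and then at 46.3, 54.3 and 30.9, beside the higher postnatal sums of microglial and blood markers given above. The H2-DMa call from E15.5 was lost with a pseudocount of 0.1 (2.52 log2, limma adjusted p = 0.0522).

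Ribosomal protein genes near the peaks mostly fell with age, as did the rest of their family. Between E11.5 and E15.5, 11 of the 17 fell while 1 rose, with 11 and 13 fallen under median centring and upper quartile scaling. Between E11.5 and the postnatal stage 12 fell (13 and 15 under those scalings) while none rose. Of 63 ribosomal protein genes tested that were not near a peak of the 500 by this rule, 43 and 55 fell in these comparisons. These 63 include genes near a lower-ranked peak and genes with no known start. Of the 64 ribosomal protein genes with a known start, 44 were near a peak of any rank. Rps7, of the small subunit (rank 27), averaged 2886 ± 471 FPKM at E11.5, 1452 ± 234 at E15.5 and 1010 ± 166 postnatally (SD, n = 3). Rps28 (rank 163) averaged 1645 ± 608, 764 ± 264 and 301 ± 48.0 FPKM (SD, n = 3), and its neighbour across the divergent start, Ndufa7 of respiratory complex I, 826 ± 260, 1084 ± 390 and 548 ± 126, with no stage call. The member that rose was Rpl26 (rank 20), listed at 0, 1.28 and 18.3 FPKM at E11.5 and 111, 50.8 and 56.6 at E15.5. Many ribosomal protein genes have near-identical processed copies, so their FPKM is uncertain. None of the 9 respiratory chain genes was called between E11.5 and E15.5, where 17.43% of all genes rose and 11.48% fell. Their stage means spanned 126 to 1568 FPKM. All 6 near splicing genes fell from E15.5 to the postnatal stage, against 9.55% of all genes. Splicing genes away from the peaks were not compared, so these falls cannot be tied to the peaks. The calls of Srsf10, Hnrnph3 and Sf3b3 were lost without some single libraries, such as postnatal library a (-1.14, -1.18 and -0.89 log2). Hnrnpk, whose call held under each alternative run, stood at 564, 487 and 727 FPKM and then at 143, 161 and 199 (log2 -1.81). Of the 14 top-ranked genes with a start, 1 rose (Wdr77) and 1 fell (Rbm39) before E15.5, against 17.43% and 11.48% of all genes. Both calls were lost without some single libraries, such as E15.5 library a (0.76 and -1.01 log2).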

How the data were processed

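For the processing upstream, the submitters' processing notes list TopHat2, Cufflinks, BWA and MACS 1.4.2, only the last with a version, and both mm9 and mm10 as builds, with no role for either. The peak list is in mm10 coordinates and holds 1 score for each peak, as deposited by the authors; its header names MACS, and the scale of the score is not stated. For RNA, the authors deposited FPKM: a value for each library in the stage table, and group values in the knockout tables, where per the file headers log2 fold changes, p-values and q-values stand beside them. Depth is unknown, and the input sample's values were not used here. Of the stage columns, 3 match no sample and were left out, and 14 genes with a failed status were dropped.

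Starts and sequences came from RefSeq tables of GRCm38.p6: 17492 of 21900 coding genes had a start. Of 22542 gene names in the stage table, 19994 matched by symbol and 2251 by synonym. The test of stages was limma 3.58.1 under R 4.3.3 (one fit of 9 libraries, 6 residual degrees of freedom, Benjamini-Hochberg adjustment, pseudocount 1), checked on simulated data. Distances, words and exact binomial intervals (95%, counting error only, overlapping windows counted apart) were computed with Python 3.11.15 and scipy 1.17.1. Named genes were the nearest to 15 top peaks, serotonin genes with a peak, genes called in both kits, up to 4 risen and 4 fallen per stage comparison, and up to 4 near members per list by score. One gene named by this rule is not reported here. The members, lists and words were chosen with earlier results of these data known. The alternatives tried were other distances, peak numbers, folds, filters, pseudocounts, scalings and left-out libraries.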

Additional observations from a re-analysis of the deposited data

How the results depend on the processing

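No paired analysis was possible because the column indices of the stage table count from 0 and are not tied to the labels' replicate numbers, which count from 1, and the knockout tables hold group values, so the fit with a replicate block was not run. The share of peaks within 1 kb of a start, 69.2%, was 80.4% for 250 peaks, 75% from the nearest edge, 79.6% within 5 kb, 84.4% within 20 kb and 79.6% with genes of unknown strand, an alternative chosen after seeing the data. It was 66.2% for 1000 peaks, 65.4% within 500 bases and 73.0% with all RefSeq genes. GGAA at least 3 times stood in 71.4% of windows (65.6% of all) and CCGGAAGT in 13.1%. In place of TCTCGCGAGA, and also chosen after seeing the data, CTCGCGAG stood in 29.9% (1.24% of all) and TCGCGA in 41.5% (3.32% of all).

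The genes lower with Clontech numbered 1 with a start within 1 kb and 6 for 1000 peaks, and those higher 2 with the single nearest gene, 3 for 1000 peaks and 0 at 2-fold. With NuGEN, 10, 30 and 4 were lower for 250 peaks, 1000 peaks and 2-fold, and 22, 68 and 5 were higher. With starts within 20 kb, 44 rose from E15.5 and 46 from E11.5 to the postnatal stage, and 15 rose from E15.5 with no filter on low values. Leaving out 1 library at a time gave 30 to 65 risen and 36 to 54 fallen from E11.5 to E15.5, 11 to 32 and 21 to 73 from E15.5, and 17 to 27 and 35 to 57 from E11.5 to the postnatal stage. These ranges are given without the share over all genes. The median level at E11.5, E15.5 and postnatally was 11.2, 11.6 and 8.88 FPKM with starts within 1 kb, 7.26, 6.99 and 6.31 within 20 kb, and 7.34, 6.97 and 6.33 for the single nearest gene. Counts differ by construction where the set of genes is larger or smaller or the fold required is higher. The cause of the other moves was not tested. Of 73 stage calls of named genes, none reversed under the alternatives run, 44 held under each, and 27 were lost without at least 1 library. One ChIP library without a replicate limits each statement on peaks, and depth could not be assessed.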
